A study of Drosophila melanogaster with 12 samples.

Results

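The POU homeobox genes *nub*, *pdm2*, *vvl*, *acj6* and *pdm3* are 5 of the 18119 genes of *Drosophila melanogaster* over which the chromatin binding of *Polycomb-like* (*Pcl*) was measured in the sweet taste neurons. They were chosen by name from the POU family, not by their binding. *Pcl* binding was profiled by targeted DamID (TaDa), in which the DNA adenine methyltransferase Dam, fused to Pcl, methylates GATC sites near which Pcl sits. Each value, log2(*Dam::Pcl/Dam*), is the signal of the fusion over that of Dam alone on 1 GATC fragment. The genotype of all samples used was Gr5a;tubulinGAL80ts>UAS-LT3-Dam::Pcl, so that the fusion is made only in cells with the Gr5a driver and only after a shift to the warm. There were 3 replicates on a control diet (5% sucrose) and 3 on a sugar diet (30% sucrose), each of 300 pooled heads of males and females. The labels put flies on the diet at day 5, move them from 20 °C to 29 °C at day 6 and give 4 days in the titles, whereas the methods of the study describe some days of diet before a shift to a slightly lower temperature, so these sources differ on the length of the diet. Binding at *Gr5a* and *Gr66a*, the receptor genes of sweet and bitter neurons, was near 0, with control diet means of 0.23 and -0.27 and sugar diet means of 0.19 and -0.42. A binding ratio does not measure expression, and the cell type could not be checked further.

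POU proteins bind DNA through a POU-specific domain joined to a homeodomain, and the octamer ATGCAAAT is their classic site. In the fly, *nub* (also called *pdm1*) and *pdm2* are neighbouring, closely related genes that act in the temporal series of neural stem cells, and *nub* is needed for wing growth. *vvl* acts in tracheal cells, midline glia and wing veins, *acj6* selects odorant receptors and shapes the wiring of olfactory neurons, and *pdm3* likewise acts in odorant receptor choice and axon targeting. Pcl is an accessory subunit of Polycomb Repressive Complex 2, which methylates lysine 27 of histone H3, and genes of developmental transcription factors are its typical targets.

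The 373710 fragments read here (median 196 bp) lie on X, 2L, 2R, 3L, 3R and 4. No read counts are given, so the depth is unknown. Of the fragments at exactly 0 in one sample, 0% were negative in another sample of the same diet, against 8.99% to 15.7% in a sample of the other diet, and the sources used here do not name the Dam-only library behind each ratio. Where replicates of a diet share 1 denominator, the spread between them, and the p-values below, leave out the spread between denominators. The diets also differed with base composition. Over all genes the difference, sugar minus control, rose with GC content (r = 0.678 across 18119 genes, which are not independent). The part of the denominator in the differences below was not tested. For base composition, values after a correction for GC content are given where it changed the call of a span, start or peak. Changes of direction among differences called neither way are listed near the end. For single fragments only counts after the correction are given.

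Pcl binding over all 5 genes was above that of most genes on the control diet, with means over the gene span from 0.91 (*pdm3*) to 2.90 (*pdm2*). The mean of each gene was taken over its annotated span with 1 kb on each side, weighted by fragment length. The median over all genes tested was 0.04, and the 5 means lay between the 91.6th percentile (*pdm3*) and the 98.8th percentile (*pdm2*) of all genes.

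For *pdm2* (FBgn0004394, 2L 12657165 to 12686306, dm6, plus strand), log2(*Dam::Pcl/Dam*) was 3.05, 2.94 and 2.70 on the control diet and 2.81, 3.10 and 3.24 on the sugar diet. For *acj6* (FBgn0000028, X 15350239 to 15379064, minus strand), it was 2.82, 2.73 and 2.37 against 2.14, 2.58 and 2.59. For *nub* (FBgn0085424, 2L 12587625 to 12628135, plus strand), it was 2.37, 2.27 and 2.08 against 2.00, 2.27 and 2.44. In these 3 genes the samples of the diets overlapped. For *vvl* (FBgn0086680, 3L 6790158 to 6794941, plus strand), it was 1.66, 1.60 and 1.22 against 1.33, 1.41 and 1.75, again with overlap. For *pdm3* (FBgn0261588, 2R 8327490 to 8396280, plus strand), it was 0.98, 0.90 and 0.84 against 1.11, 1.27 and 1.55. *pdm3* was the one gene of the 5 in which every sugar diet sample lay above every control diet sample, as 28.2% of all genes did, while 31.7% had them all below.

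On the control diet the order of the levels was *pdm2* (2.90 ± 0.18, SD, n = 3), *acj6* (2.64 ± 0.24), *nub* (2.24 ± 0.15), *vvl* (1.49 ± 0.24) and *pdm3* (0.91 ± 0.07). The neighbours *pdm2* and *acj6* in this order overlapped in their samples, as did *acj6* and *nub*, while *nub* and *vvl* did not overlap, nor did *vvl* and *pdm3*. On the sugar diet the order was the same, with means of 3.05, 2.44, 2.24, 1.50 and 1.31. There *acj6* and *nub* overlapped, and *vvl* and *pdm3* now overlapped too.

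**Figure D1:**
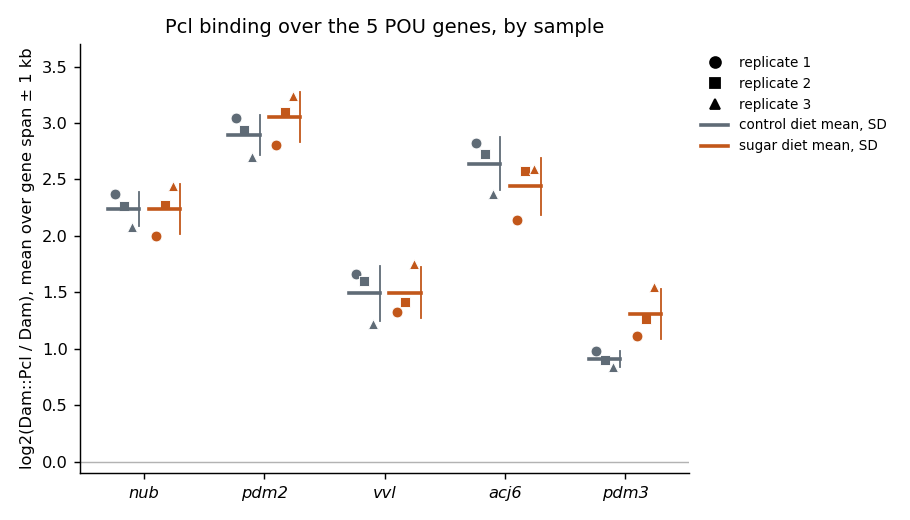
Mean log2(*Dam::Pcl/Dam*) over each gene span with 1 kb on each side (vertical axis) for the 5 POU genes (horizontal axis). Each point is 1 sample, with the replicate number given by its shape, grey for the control diet and orange for the sugar diet, and lines give the mean and the SD of 3 samples. The diets are apart in *pdm3* alone, where the samples on sugar lie between 1.11 and 1.55 and those on the control diet between 0.84 and 0.98.

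Of the 5 spans, 1 passed limma with Benjamini-Hochberg adjustment over all genes, *pdm3*, which rose on sugar by 0.40 (SE 0.12, adjusted p = 0.0363). Among all genes tested 48% passed, and 22.3% of all genes tested were higher on sugar, so 1 of 5 lies near the background. The differences of the others were 0.15 for *pdm2* (SE 0.14, adjusted p = 0.408), -0.20 for *acj6* (SE 0.17, adjusted p = 0.372), 0.0059 for *vvl* (SE 0.16, adjusted p = 0.989) and -0.0017 for *nub* (SE 0.14, adjusted p = 1), all from limma. For *nub* the 95% confidence interval of the difference was -0.34 to 0.34, and for *vvl* it was -0.40 to 0.42. The call of *pdm3* was lost without control diet replicate 1 (adjusted p = 0.0692 from limma), 2 (0.0992) or 3 (0.0976) or sugar diet replicate 2 (0.0727), and after a correction for GC content (difference 0.26, adjusted p = 0.128) or with samples scaled by their median absolute deviation (adjusted p = 0.141). Quantile normalization turned the difference of *pdm2* to -0.14 (adjusted p = 0.0496 from limma) and called *nub* (-0.25, adjusted p = 0.0105) and *acj6* (-0.48, adjusted p = 0.00395) lower. *acj6* was also called lower with samples scaled by their median absolute deviation (adjusted p = 0.0194 from limma), a scaling that takes the values off the log2 scale. The GC correction moved *nub* to 0.27 and *pdm2* to 0.36, neither called.

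Within *vvl* the span mean covered changes in opposite directions, and the values over coding bases and over the other bases are given apart for each gene, with no test of one against the other. This split was added after the values had been seen. Over the coding bases, every sugar diet sample lay above every control diet sample in all 5 genes, as in 51.9% of all genes. Over the other bases of the same windows this held in *pdm3* only, where the mean rose from 0.93 to 1.33, and in *vvl* the direction was the opposite. The other bases were not read over all genes, so whether this contrast is particular to the POU genes was not tested.

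For *vvl*, whose coding sequence of 2.23 kb lies in 1 exon, the mean over coding bases was 0.22, 0.13 and 0.43 on the control diet and 2.43, 1.85 and 2.49 on the sugar diet. The 3 samples on sugar were all far above those on the control diet, beside medians over the coding bases of all genes of -0.14 and 0.0088. Over the 4.56 kb of other bases in the window it was 2.37, 2.31 and 1.60 against 0.79, 1.19 and 1.39. For *pdm2* the coding bases had 2.83, 2.69 and 2.60 on the control diet and 3.66, 3.71 and 3.84 on sugar. *nub* coding bases had 1.44, 1.54 and 1.61 against 1.95, 2.08 and 2.10. The rise of *pdm2* was the second of the 5 in size, and those of *nub*, *pdm3* and *acj6* lay between 0.51 and 0.57. For *pdm3* the values were 0.51, 0.37 and 0.52 against 0.89, 1.07 and 1.03. For *acj6* they were 2.00, 1.86 and 1.81 against 2.14, 2.24 and 2.99, with sugar diet replicate 3 far above the others.

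Fitted over the coding bases of all 13353 protein-coding genes with at least 2 fragments there, the rise was called in *vvl* (1.99, SE 0.19, adjusted p = 0.00106 from limma), *pdm2* (1.03, SE 0.08, adjusted p = 8.18e-04), *pdm3* (0.53, SE 0.07, adjusted p = 0.00271) and *nub* (0.51, SE 0.07, adjusted p = 0.00268). *acj6* did not pass (0.57, SE 0.23, adjusted p = 0.0799 from limma), and it passed without sugar diet replicate 3 (0.30, adjusted p = 0.0338). Higher coding bases were common, at 44.8% of all genes against 56.1% called in either direction. In 51.9% of all genes every sugar diet sample was above every control diet sample, and in 14.7% below. Against a median difference of 0.23 over all genes, *vvl* stood at the 99.8th percentile and *pdm2* at the 93.8th, whereas *nub*, *pdm3* and *acj6* lay between the 73.5th and the 77.5th. GC content over coding bases was 60.6% in *vvl*, 54.7% in *pdm3*, 51.8% in *nub*, 50.4% in *acj6* and 49.9% in *pdm2*, against a median of 49.7% over all genes. The same 4 genes were called after the correction for GC content, beside 57.7% of all genes, with 53.2% higher. There *vvl* rose by 1.58 (adjusted p = 3.78e-04 from limma), against a median difference of 0.30 over all genes. Once samples were scaled by their median absolute deviation, 2 of the 4 were called, *vvl* and *pdm3*, beside 56.4% of all genes.

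Among single fragments more were higher than lower on sugar, in coding sequence and outside it. Of 451 fragments in the 5 windows, 119 were called between the diets, 94 higher and 25 lower on sugar, beside 28.8% called among all 373710 fragments, 13.2% higher and 15.5% lower. By gene these were 11 higher and 4 lower of 100 in *nub*, 20 and 3 of 95 in *pdm2*, 9 and 2 of 16 in *vvl*, 10 and 9 of 80 in *acj6*, and 44 and 7 of 160 in *pdm3*. The diets did not overlap in 169 fragments with sugar above and 55 with sugar below, beside 24.4% and 25.9% of all fragments. Neighbouring fragments are not independent. Of 74 fragments that hold coding sequence of their own POU gene, 28 were higher and 1 was lower, and of the 377 others, 66 were higher and 24 lower. The others were 36 higher and 6 lower in *pdm3*, 14 and 3 in *pdm2* and 8 and 4 in *nub*, but 8 and 9 in *acj6* and 0 and 2 in *vvl*. Among all fragments of the genome, 18% of those with coding sequence were higher and 9.8% lower, and 10.1% of the others were higher and 19.4% lower. The total was 48 without control diet replicate 1, 39 without control diet replicate 2, 79 without control diet replicate 3 and 72 without sugar diet replicate 1, beside 14.7%, 13.6%, 21.2% and 17.7% of all fragments. After the GC correction 126 were higher and 37 lower, beside 24% and 21.4% of all fragments. The split was 76 higher and 58 lower after quantile normalization, beside 14.1% and 15.7% of all fragments. It was 52 higher and 53 lower with samples scaled by their median absolute deviation, beside 13% and 16%.

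The direction went with the GC content of the fragment. Of 129 POU fragments above 50% GC, 52 were higher and 3 lower, while of 126 at or under 40% GC, 4 were higher and 18 lower. The same held for all fragments, of which 24% were higher and 4.43% lower above 50% GC, and 3.18% were higher and 33.6% lower at or under 40% GC. Across the 16 fragments of *vvl* the difference correlated with GC content at r = 0.907, and across those of the other genes at r between 0.353 (*pdm3*) and 0.614 (*acj6*), as a description of fragments that share libraries.

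**Figure D2:**
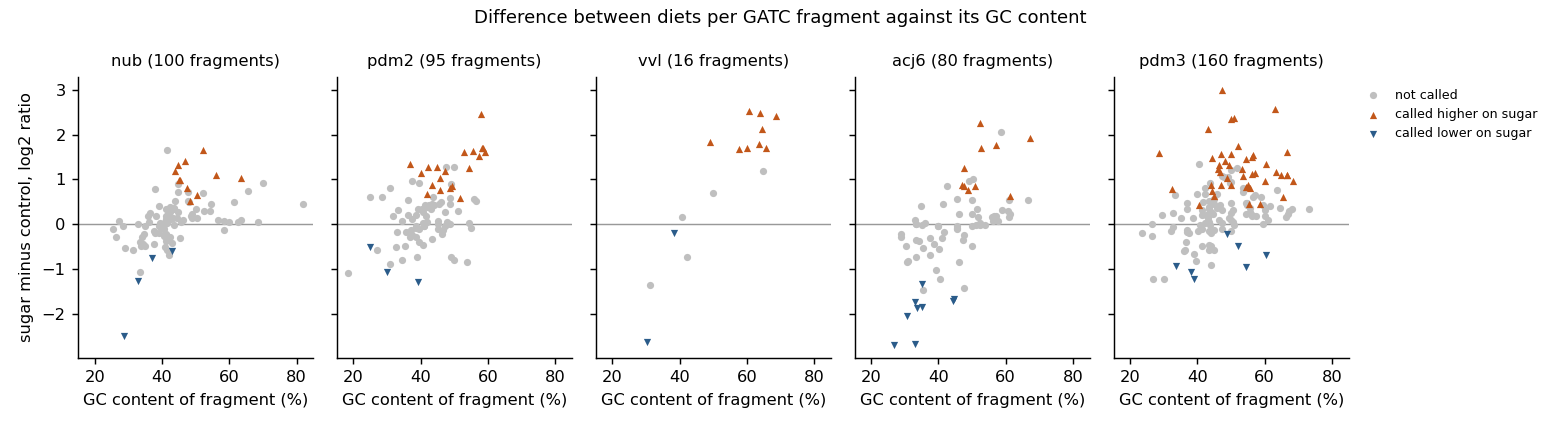
Difference between the diets in log2(*Dam::Pcl/Dam*) per GATC fragment, sugar minus control (vertical axis), against the GC content of the fragment in % (horizontal axis), 1 panel for each POU gene. Orange triangles were called higher on sugar, blue triangles lower and grey points not called, and in *vvl* the 9 higher fragments lie to the right of the 2 lower ones.

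*nub* and *pdm2* lie 29.0 kb apart on 2L in the same orientation, and Pcl binding ran on through the DNA between them. From *nub* to *pdm2* the mean was 2.56, 2.48 and 2.11 on the control diet and 1.88, 2.16 and 2.46 on the sugar diet, close to the values over *nub* itself. It was 2.50 ± 0.12 (SD, n = 3) over the 10 kb upstream of *nub* and 2.41 ± 0.29 on sugar, with overlap. Over the 10 kb downstream of *pdm2* it was 2.24, 2.15 and 2.08 on the control diet and 2.25, 2.47 and 2.42 on the sugar diet, with every sugar diet sample above the control diet samples by a small margin. *Ref2* lies across the 3′ part of *nub* and reaches into the DNA between the genes, and fragments there belong to both. Joining 1-kb bins at or above 1 across gaps of up to 2 kb, the control diet mean profile gave a domain of 63 kb around *pdm2*, as did all 3 control diet samples, and nearly all of *nub* lay in a second domain. On the sugar diet the mean profile gave 1 domain of 125 kb over both genes. The total length of the domains at *nub* was 122 kb on control and 125 kb on sugar, so the mean profiles differ in the bridging of a gap and hardly in length. In the samples on sugar the domain at *pdm2* was 125, 87 and 107 kb long, so its length varied widely between replicates.

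**Figure D3:**
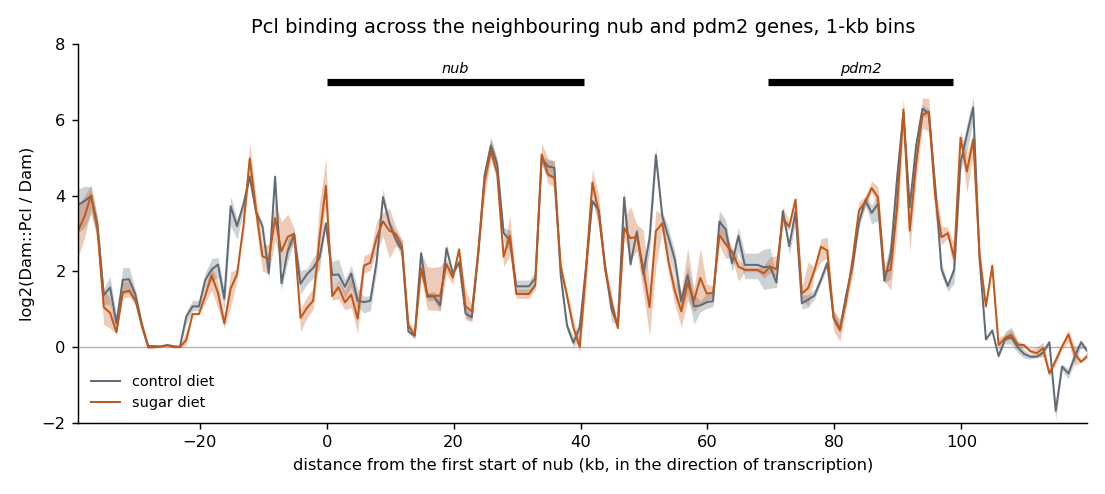
Log2(*Dam::Pcl/Dam*) in 1-kb bins (vertical axis) against the distance from the first start of *nub* in kb (horizontal axis), with lines for the mean and bands for the lowest to highest of 3 samples, grey for control and orange for sugar. Black bars mark the genes, 29.0 kb apart, and both lines reach their highest values within *pdm2* and just past it, then fall to near 0.

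At *nub*, Pcl binding rose in a peak at the first start, and a call of the strongest control diet peak depended on the scaling. 6 *Pcl* peaks overlapped the window, and 1 was called, the peak over the first start (12586236 to 12587800). Its values were 3.19, 3.15 and 2.95 on the control diet and 3.72, 3.64 and 5.19 on the sugar diet. All sugar diet samples were higher, replicate 3 by far the most. The difference was 1.08 (SE 0.32, adjusted p = 0.00767 from limma), and 0.58 without sugar diet replicate 3 (adjusted p = 0.0445). It was 1.42 after the GC correction (adjusted p = 5.72e-07 from limma), and it missed the threshold after quantile normalization (0.74, adjusted p = 0.0624) and with samples scaled by their median absolute deviation (adjusted p = 0.356). Peak 4, the strongest of the gene on the control diet (12611279 to 12615823, in part over *Ref2*), had 4.44, 4.37 and 4.03 against 3.72, 4.32 and 3.94. On sugar its mean was below the 4.18 of peak 1. Its difference of -0.28 (95% confidence interval -0.77 to 0.20) was within the spread. It was called lower after quantile normalization (-0.64, adjusted p = 0.00785 from limma) and under scaling by the median absolute deviation (adjusted p = 0.0222), and it was 0.14 after the GC correction. Peak 3, in the middle of the gene (12607583 to 12608533, 37.0% GC), had a difference of 0.14, and of 1.25 after the GC correction. It was common to the control diet only, a choice that favours a lower value on sugar, and no test is given. The largest fall among called fragments was in an intron 9.29 kb from the start (12596687 to 12597144, 28.6% GC), from 4.57 to 2.08.

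The DNA just before the first start of *nub* is shown since it lies in the 1 peak of the gene that was called. It is drawn on the plus strand of dm6 in lower case, with matches in capitals to GAGAG, the core of the site of GAGA factor, to GCCAT, the core of the site of Pho, and to the octamer ATGCAAAT, on either strand. GAGA factor and Pho are DNA-binding proteins known from Polycomb response elements.

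nub upstream of first start, chr2L:12587325-12587624: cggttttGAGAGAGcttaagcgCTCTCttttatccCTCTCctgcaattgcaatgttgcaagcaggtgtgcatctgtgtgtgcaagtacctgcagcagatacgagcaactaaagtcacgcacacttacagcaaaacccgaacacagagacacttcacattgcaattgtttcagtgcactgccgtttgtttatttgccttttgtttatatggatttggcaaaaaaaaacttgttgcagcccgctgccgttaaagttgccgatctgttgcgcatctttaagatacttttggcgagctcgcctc

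Over these 300 bases log2(*Dam::Pcl/Dam*) was 4.19, 4.11 and 4.30 on the control diet and 5.51, 5.28 and 6.76 on sugar. GAGAG was found at 4 places, 2 of them overlapping, and the other motifs at none. Of the windows of 300 bases upstream of 13945 protein-coding genes, 28.9% held GAGAG, 40.9% GCCAT and 3.85% the octamer. A match is no evidence of a site in use.

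Of the 3 annotated starts of *nub*, the window of 1 kb on each side of the first gave 2.71 ± 0.24 against 3.17 ± 0.52 (SD, n = 3 each), which did not pass (adjusted p = 0.226 from limma). After the GC correction this start was called higher (1.09). The other 2 starts, 12618345 and 12618783, lie on 1 fragment and were not tested. They had 1.60 on control and 1.40 on sugar.

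*pdm2* had the highest binding of the 5 genes, and its strongest sites were high on both diets. The top fragment of the gene, in an intron (12681620 to 12682150), was the highest of the window in 6 of 6 samples. It had 7.88, 7.83 and 7.93 on the control diet and 7.97, 8.62 and 8.09 on the sugar diet, a difference of 0.35 that was not called (adjusted p = 0.239 from limma). The start nearest to it, 12678604, had 5.56, 5.52 and 5.18 against 4.50, 5.37 and 5.31. The 3 starts at the 5′ end had control means between 1.81 and 2.13, so within this gene binding was far higher at the internal start. No start of *pdm2* was called, with differences from -0.36 (adjusted p = 0.305 from limma) at 12678604 to 0.13 (adjusted p = 0.645) at 12657824. The internal start was called lower after quantile normalization (-0.76) and under scaling by the median absolute deviation (adjusted p = 0.0465 from limma), and the 3 at the 5′ end higher after the GC correction (0.71 to 0.80). Of 5 peaks, the strongest, peak 4 (12676342 to 12685689) and peak 5 (12686258 to 12690500), had control means of 4.45 and 4.87 and sugar means of 4.42 and 4.53, with overlap. After quantile normalization both were called lower, peak 4 by limma at -0.41 (adjusted p = 0.0409) and peak 5 at -0.72 (adjusted p = 0.00501). Peak 5 was also lower under scaling by the median absolute deviation (adjusted p = 0.00688 from limma), whereas after the GC correction it was 0.44 and not called.

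Peak 2 of *pdm2*, in an intron (12664108 to 12664620), was common to the replicates of the sugar diet only, a choice that favours a higher value there, and no test is given. It had 1.72, 1.74 and 2.43 on the control diet and 3.48, 3.36 and 3.34 on the sugar diet. The samples on sugar were all higher and close together. The difference was 1.43, and 0.62 after the GC correction. The other 4 peaks of the gene were common to both diets and were not called. The largest rise of a fragment lay in coding sequence near the 3′ end (12685198 to 12685631, 57.8% GC), from 1.84 ± 0.34 to 4.30 ± 0.19 (SD, n = 3 each).

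The centre of peak 2 and the middle of the top fragment are set side by side. Peak 2 was common to the replicates of the sugar diet only, though called in 4 samples, and the top fragment was the highest on both diets.

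pdm2 peak 2, chr2L:12664215-12664514: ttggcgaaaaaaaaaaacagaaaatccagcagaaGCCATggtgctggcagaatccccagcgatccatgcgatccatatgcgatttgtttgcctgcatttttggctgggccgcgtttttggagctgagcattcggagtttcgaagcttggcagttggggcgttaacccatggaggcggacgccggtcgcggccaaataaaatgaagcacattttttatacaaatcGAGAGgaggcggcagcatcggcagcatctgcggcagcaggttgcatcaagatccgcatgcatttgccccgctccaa
pdm2 top fragment, chr2L:12681736-12682035: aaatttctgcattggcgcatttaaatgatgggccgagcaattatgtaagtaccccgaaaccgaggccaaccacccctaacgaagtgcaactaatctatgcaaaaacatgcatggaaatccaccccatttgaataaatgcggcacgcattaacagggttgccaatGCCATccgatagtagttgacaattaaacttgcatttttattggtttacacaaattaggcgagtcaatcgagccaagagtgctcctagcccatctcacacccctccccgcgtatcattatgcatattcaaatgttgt

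The capitals mark the same motifs. The peak 2 window had 1 GAGAG and 1 GCCAT, and the top fragment 1 GCCAT. GC content was 52.3% in the peak 2 window and 43.7% in that of the top fragment. Among 1762 peak centres of this length, 33.4% held GAGAG, 49.7% GCCAT and 5.96% the octamer, with shares of 30.2%, 47.6% and 4.94% over tiles of the whole genome.

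Of the 5 genes, *vvl* had the lowest correlation of profiles across the diets, with a rise over the coding exon beside a fall over the end of the gene. Its window held 16 fragments, against 80 to 160 in the other genes. Single called fragments rose more in *pdm3* (3.00) and fell more in *acj6* (-2.70, a fragment of 15 bp). The profiles of its 16 fragments correlated at r between 0.602 and 0.972 within a diet and between -0.447 and 0.452 across the diets. In the other 4 genes the lowest r across the diets was 0.693. The 3 fragments from upstream of the start to 0.64 kb into the gene were not called. From 0.82 kb to 2.77 kb from the start 9 fragments in a row were higher on sugar. The largest rise (6792740 to 6793107, 60.6% GC) was from 0.09, -0.40 and 0.18 to 2.73, 2.12 and 2.61, a difference of 2.53 (SE 0.24, adjusted p = 0.00662 from limma). That fragment is annotated both as coding and as 3′ untranslated sequence. The largest fall (6793867 to 6795265, 30.4% GC), over the end of the gene, was from 3.98, 3.87 and 2.77 to 0.36, 1.37 and 0.98, a difference of -2.64 (SE 0.46, adjusted p = 0.0192). The diets did not overlap in either. These fragment values are without the GC correction, and the part of base composition in this change of profile was not tested. No *Pcl* peak common to a diet overlapped the *vvl* window. Its 1 start, shared by 5 transcripts, had 1.45, 1.66 and 1.02 against 1.67, 1.61 and 2.32, which did not pass (adjusted p = 0.157 from limma).

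The end of the shorter annotated *vvl* coding sequence is shown as GC-rich DNA over which binding rose. It includes the codons of the recognition helix of the homeodomain and ends with the stop codon before the first annotated 3′ untranslated region. All annotated isoforms of this gene share its 1 start, and the longer ones read on past this stop.

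vvl end of coding sequence, chr3L:6791810-6792109: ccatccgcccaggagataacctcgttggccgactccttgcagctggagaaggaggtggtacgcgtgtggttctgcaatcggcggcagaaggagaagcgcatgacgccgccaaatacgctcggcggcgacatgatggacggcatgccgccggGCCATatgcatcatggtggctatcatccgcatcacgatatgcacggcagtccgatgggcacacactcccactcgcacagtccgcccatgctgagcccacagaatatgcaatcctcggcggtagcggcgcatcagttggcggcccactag

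This stretch lies in 1 fragment, with 61.7% GC and 1 GCCAT in capitals. It had 0.85, 0.63 and 0.97 on the control diet and 2.82, 2.32 and 2.40 on the sugar diet.

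At *acj6* the values on sugar were lower at the 3′ part of the gene, where 1 peak common to both diets was called. Peak 1, over the 3′ end (15349876 to 15352893), had 4.15, 4.07 and 3.47 on the control diet and 1.82, 2.78 and 2.39 on sugar. Peak 2 (15354489 to 15359416), 22.1 kb from the start, had 5.00, 4.94 and 4.52 against 3.68, 4.39 and 4.30. All sugar diet samples were below all control diet samples in both. Peak 1 was common to the control diet replicates only, a choice that favours a lower value on sugar, and its difference of -1.57 is given with no test. Its GC content was 34.8%, and after the GC correction its difference was 0.06. Peak 2 fell by 0.70 (SE 0.24, adjusted p = 0.0229 from limma), and by 0.52 after the GC correction (adjusted p = 0.0791). Peak 2 was not called without control diet replicate 1 (adjusted p = 0.104 from limma) or 2 (0.0997) or sugar diet replicate 1 (0.0586). The other 3 peaks, toward the start, had differences between -0.44 and 0.00069. Peak 4, common to both diets, was not called. Peak 5, nearest to the start, had a difference of 0.84 after the GC correction and -0.48 after quantile normalization. Peak 3 had -0.79 after quantile normalization and 0.15 after the GC correction. Peaks 3 and 5 were common to the control diet only, a choice that favours a lower value on sugar, and no test is given.

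The start of *acj6*, shared by 13 transcripts, had 2.34, 2.03 and 1.65 on the control diet and 1.93, 2.43 and 3.47 on sugar, which overlapped (adjusted p = 0.279 from limma). The 30-kb domain of bins at or above 1 matched the gene on both diets, from 15350001 to 15380000 in the mean profiles. *Pp1-13C*, which encodes a catalytic subunit of protein phosphatase 1, lies within an intron of *acj6*. Its own span, which shares fragments with *acj6*, was called lower, from 2.63 to 2.03 (adjusted p = 0.0168 from limma).

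The middle of the fragment of *acj6* with the highest mean over the 6 samples is shown, within peak 2. It was the highest of the window in 1 of 6 samples, and 4 different fragments were the highest in 1 sample or more.

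acj6 top fragment, chrX:15355140-15355439: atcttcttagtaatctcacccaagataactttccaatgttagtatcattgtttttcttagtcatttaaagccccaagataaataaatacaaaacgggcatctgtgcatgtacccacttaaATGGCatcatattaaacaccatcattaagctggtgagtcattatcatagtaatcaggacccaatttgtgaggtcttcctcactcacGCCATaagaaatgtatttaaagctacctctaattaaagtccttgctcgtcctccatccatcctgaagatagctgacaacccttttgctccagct

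It had 5.92, 5.95 and 5.40 against 3.97, 5.03 and 4.56, lower in all sugar diet samples and just short of the threshold (adjusted p = 0.0547 from limma). GCCAT was found at 2 places, once on each strand.

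*pdm3* had the lowest binding of the 5 on the control diet and gained binding at its first start. That start, 8327490, shared by 3 transcripts, had 2.04, 2.02 and 1.71 on the control diet and 2.82, 2.88 and 4.31 on sugar. The control diet samples were close together, and sugar diet replicate 3 stood above the other two. The difference of 1.42 (SE 0.42, adjusted p = 0.0386 from limma) made it the 1 start called among 9 tested in the 5 genes, beside 46.2% of all 23687 starts tested, with 22% of all starts higher. The diets did not overlap at both starts of *pdm3*, sugar above, as at 28.7% of all starts, with 30.3% the other way. The first start was not called under scaling by the median absolute deviation (adjusted p = 0.0539 from limma), nor without control diet replicate 1 (adjusted p = 0.0873 from limma), 2 (0.0935) or 3 (0.102), and the difference was 0.93 without sugar diet replicate 3. The second start, 8387370, had 1.38, 1.44 and 1.25 against 1.50, 1.99 and 1.71, apart but not called (adjusted p = 0.0704 from limma), and it was called without sugar diet replicate 1 (adjusted p = 0.0331).

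Both *Pcl* peaks of *pdm3* had higher values on sugar, and the 1 common to both diets was called. Peak 1, over the first start (8325225 to 8327772), had 1.97, 1.91 and 1.81 against 2.97, 3.17 and 4.04, a difference of 1.50, and of 0.79 after the GC correction. It was common to the sugar diet replicates only, a choice that favours a higher value there, and no test is given. Peak 2, in the first intron (8334276 to 8339250), had 2.92, 2.84 and 2.77 against 3.23, 3.60 and 3.53, a difference of 0.61 (SE 0.22, adjusted p = 0.0243 from limma). This call was lost without any 1 of 5 samples, sugar diet replicate 1 being the exception, with adjusted p between 0.0511 and 0.106 from limma, after quantile normalization (0.28, adjusted p = 0.0891) and under scaling by the median absolute deviation (adjusted p = 0.897). The largest rise of a fragment in the 5 genes lay just past the first start (8327530 to 8327772), from 1.67, 1.53 and 1.55 to 4.0, 3.94 and 5.80.

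The share of the *pdm3* window at or above 1 was between 35.9% and 43.7% on the control diet and between 49.3% and 67.7% on sugar. For *acj6* it was between 78.9% and 81.3% and between 83.3% and 86.3%. In *nub*, *pdm2* and *vvl* the mean share was 76.9%, 84.5% and 57.8% on control and 77.0%, 88.6% and 64.7% on sugar. This share was not taken over all genes, so how common such differences are was not tested. The intron that ends at the second start holds nested genes, among them *hubl*, *whip*, *swif* and *boly*, and the spans of these nested genes were between -0.05 and 0.31 on the control diet. Low ratios over these genes are part of the mean over *pdm3*. The longest domain at *pdm3* was 40 kb in the control mean profile (8303001 to 8343000) and 95 kb in the sugar one (8253001 to 8348000). The gene starts at 8327490, so most of the added length lies upstream of it. Bins from -26.99 to -24.99 kb, under 1 in the control diet samples (0.73, 0.74 and 0.87), were just above it on sugar (1.28, 1.14 and 1.14). In the samples on sugar the domain was 95, 76 and 112 kb long, and in replicate 2 it ended at 8329000.

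**Figure D4:**
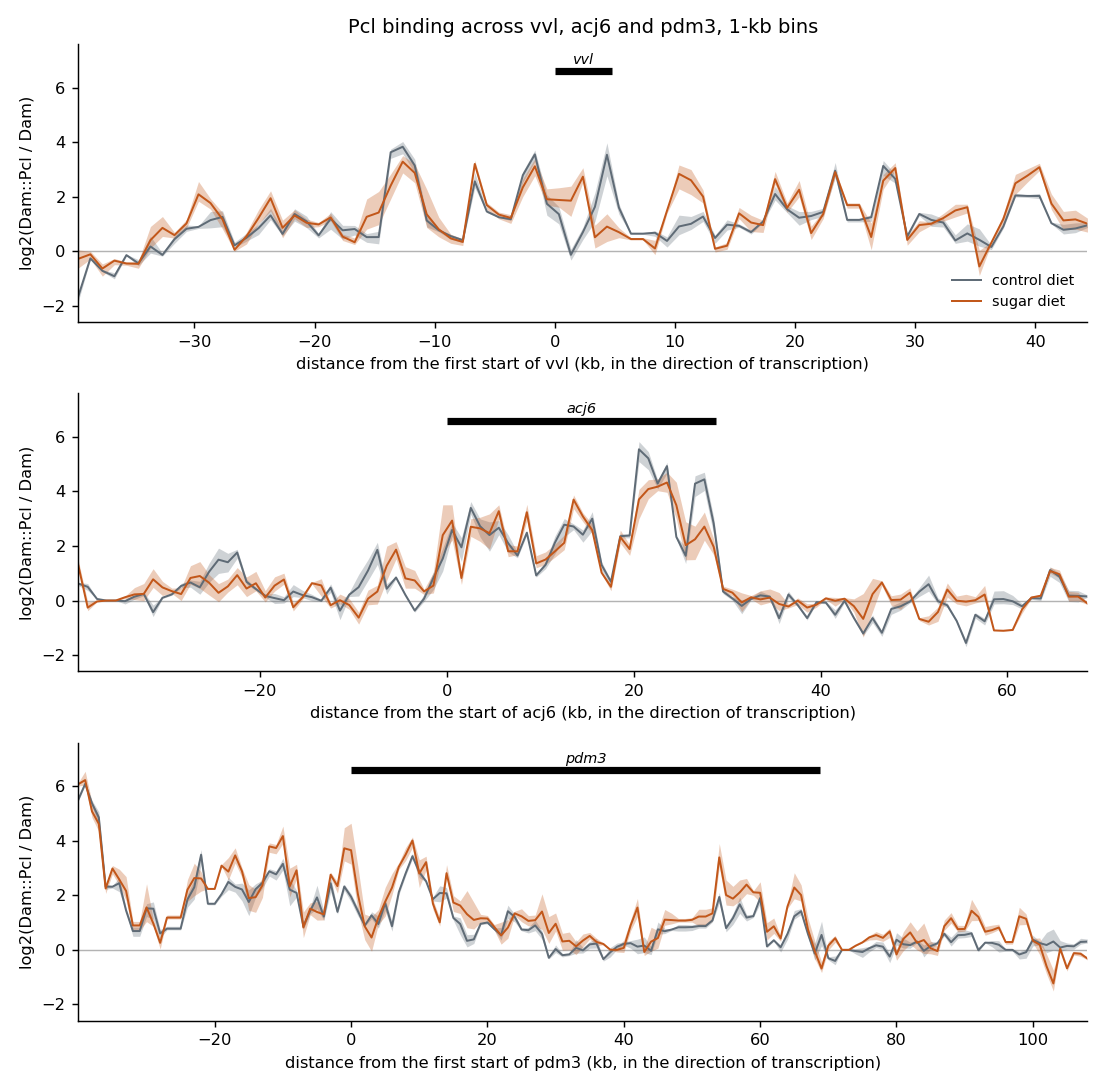
Log2(*Dam::Pcl/Dam*) in 1-kb bins (vertical axes) against the distance from the first start in kb (horizontal axes) for *vvl*, *acj6* and *pdm3*, with lines for the mean and bands for the lowest to highest of 3 samples, grey for control and orange for sugar, and black bars for the genes. The lines cross within *vvl*, the control line is higher at the 3′ end of *acj6*, and the sugar line is higher at the start of *pdm3*.

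Over the 5 windows, 18 *Pcl* peaks were read, 6 at *nub*, 5 each at *pdm2* and *acj6* and 2 at *pdm3*. Of these 11 were common to the replicates of both diets, 5 to those of the control diet only and 2 to those of the sugar diet only. Among the 11, 3 were called, 2 higher (*nub* peak 1 and *pdm3* peak 2) and 1 lower (*acj6* peak 2). Of all 1068 peaks common to both diets 40.6% were called, 34% higher and 6.65% lower, so the count at the POU genes does not exceed the background. Without overlap, sugar was above in 3 of the 11 and below in 1, beside 43.5% and 6.93% of all peaks common to both diets. The split of the 11 was 0 higher and 4 lower after quantile normalization, beside 23.3% and 22.9% of all such peaks. It was 0 and 3 with samples scaled by their median absolute deviation, beside 2.72% and 15.3%, and 2 and 0 after the GC correction, beside 26% and 2.34%. 1 was called without control diet replicate 1 and 1 without control diet replicate 2, beside 32.3% and 27.8% of all such peaks. 2 were called without any 1 of control diet replicate 3, sugar diet replicate 2 and sugar diet replicate 3, beside 35.8%, 31.6% and 35.5%. 3, all higher, were called without sugar diet replicate 1, beside 56.2% called and 50.7% higher. With the peaks of 1 diet included, 6 of the 18 passed, 4 higher and 2 lower, beside 50.8% of all 1769 peaks, 37.2% higher and 13.6% lower, but the choice of peaks of 1 diet favours a difference and nothing is read from this count. Over all 1769 peaks the difference rose with GC content at r = 0.759.

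**Figure D5:**
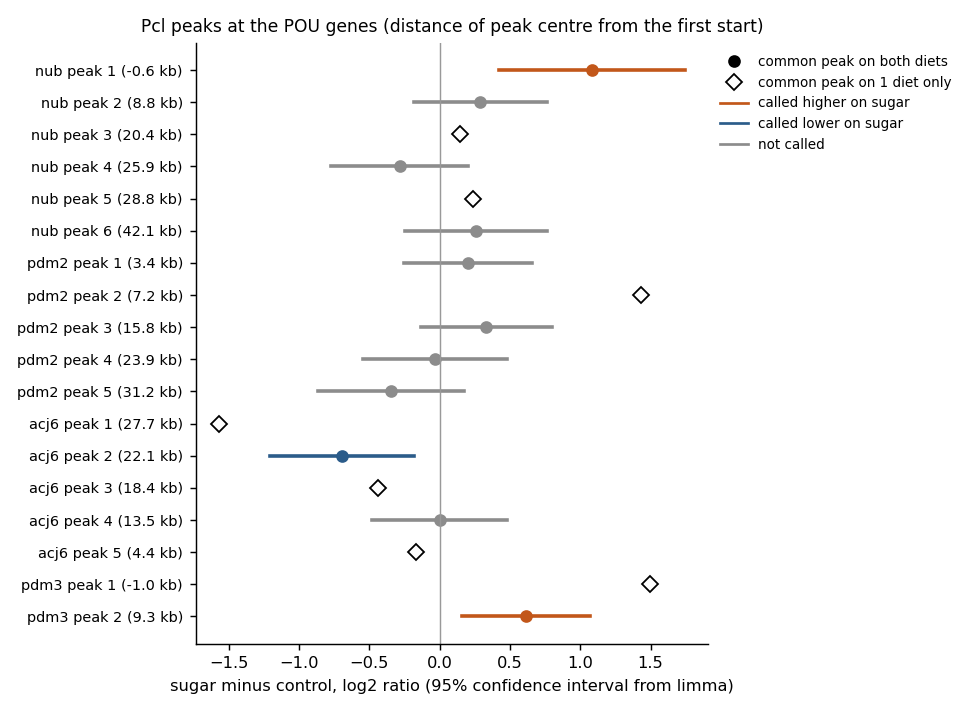
Difference between the diets in mean log2(*Dam::Pcl/Dam*), sugar minus control (horizontal axis), for the 18 *Pcl* peaks at the POU genes (vertical axis, with the distance of the peak centre from the first start in kb). Circles, with the 95% confidence interval from limma, are peaks common to the replicates of both diets, orange called higher, blue lower and grey not called, and open diamonds are peaks of 1 diet, drawn with no interval. The 2 orange peaks lie at 1.08 and 0.61 and the blue one at -0.70.

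In the mean over spans the pair *nub* and *pdm2* lay above the other POU genes on both diets. *acj6* alone (2.64 on control and 2.44 on sugar) lay above *nub* (2.24 on each). Over gene spans, the mean of *nub* and *pdm2* minus the mean of *vvl*, *acj6* and *pdm3* was 0.89, 0.86 and 0.91 on the control diet and 0.88, 0.94 and 0.88 on the sugar diet. The diets overlapped, with means of 0.89 and 0.90, a change of 0.0076 that became 0.271 after the GC correction and -0.0574 after quantile normalization. With transcript starts in place of spans it was 0.81, 0.63 and 0.70 against 0.26, 0.15 and -0.27, lower in every sugar diet sample. Here each gene is the mean of all its annotated starts, also those of *nub* that share a fragment and were not tested. The windows of the 3 starts at the 5′ end of *pdm2* overlap and are counted apart. Differences at single starts ran from -0.36 to 0.46 in *nub* and *pdm2*. In the other genes they ran from 0.37 to 1.42, the highest at the first start of *pdm3*. At the starts the pair lay above the others on the control diet by 0.71 in the mean. On the sugar diet the mean was 0.05 with an SD of 0.28, and in replicate 3 the pair lay below the others. These are descriptions of chosen genes, with no test.

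Of 10 genes that act beside the POU factors, 3 were called higher and 1 lower, against the background of 22.3% and 25.7%. They comprise *hb*, *Kr*, *cas* and *grh* of the neural temporal series, *vg*, *sd* and *wg* of the wing, and *D*, *sim* and *trh* of the midline and trachea. The higher ones were *hb* (1.77 to 2.23), *cas* (0.05 to 0.41) and *wg* (1.66 to 2.00), and the lower one *sd* (0.20 to -0.10). Their median on the control diet was 2.22, close to the 2.24 of the 5 POU genes, and their median difference was 0.04. Of 7 LIM homeobox genes, another family of homeobox genes of neurons, 2 were called higher and 0 lower by limma, namely *Lim3* (2.55 to 3.12) and *tup* (2.67 to 3.23). The median of that list was 2.20 and its median difference 0.38, beside -0.0072 over all genes tested.

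The genes most like each POU gene over the 6 samples, by the root mean square difference of the span values, were *lov* (0.05) and *nompC* (0.07) for *nub*, and *CG46458* (0.05) and *otp* (0.05) for *pdm2*. For *vvl* they were *CG12684* (0.11) and *CG14837* (0.12), for *acj6* *HGTX* (0.04) and *Npc2c* (0.08), and for *pdm3* *Alms1b* (0.03) and *eIF4H2* (0.05). Between 13929 and 13940 protein-coding genes were compared in each case.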

How the data were processed

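Targeted DamID was read in 6 *Dam::Pcl* samples, 3 on each diet. The authors discarded low-quality reads, aligned with Bowtie2 to dm6 (BDGP6) in the damidseq_pipeline and deposited log2(*Dam::Pcl/Dam*) per GATC fragment, 1 file per replicate. Normalization option, pseudocount, read counts and the Dam-only partner of each ratio are not given in the sources used here, so depth is unknown and its precision cannot be stated. The 6 Dam-only samples of the series were not analysed here on their own.

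Fragment values, weighted by length, were averaged over each gene and its 1-kb flanks (at least 2 fragments), over 1 kb to either side of transcript starts, and over *Pcl* peaks. Peaks came from a re-implementation of the find_peaks procedure (FDR under 0.01, common to the 3 replicates of a diet, 1769 after merging), not from the authors' own program, and peak numbers can differ from it. Peaks common to 1 diet only were chosen by that diet, so calls are counted over the peaks common to both diets. Over coding bases, values were averaged in the same way. Each kind was fitted as a whole with limma 3.58.1 (R 4.3.3, lmFit and eBayes), sugar minus control, with Benjamini-Hochberg adjustment over all features and a threshold of 0.05. The fit and the peak procedure were tested on simulated data.

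The text names the 5 genes, their peaks, the starts with the highest and lowest difference, the top fragments, and the 2 genes nearest to each in level. The fragments with the largest rise or fall, other starts, the coding split and the overlapping genes were added after their values were seen. The members and lists were chosen with earlier results of these data known. Alternatives were quantile normalization, scaling by the median absolute deviation, a GC correction, the replicate number as a block, other windows, filters and thresholds, and leaving out each sample. Replicates are stated to be biological, each of pooled heads.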

Additional observations from a re-analysis of the deposited data

How the results depend on the processing

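The count of POU gene spans called, 1, was 4 after quantile normalization (1 higher and 3 lower), beside 52.1% of all genes. Under scaling by the median absolute deviation it was 1 (*acj6*, lower, in place of *pdm3*), beside 46.9%. With coding bases in place of spans (chosen after seeing the data) it was 4, beside 56.1%. It was 0 after the GC correction (33.1% of all genes), with the replicate block (35%), with both (21.4%), or at adjusted p under 0.01 (25.5%). Leaving out 1 sample gave 0 to 1, beside 33.6% to 42.2% of all genes. The count of starts, 1, was 2 after quantile normalization, beside 49.3% of all starts. Under scaling by the median absolute deviation it was 1 (*pdm2* 12678604, lower, in place of the first start of *pdm3*), beside 45.1%. It was 5 after the GC correction (33.9% of all starts) and 4 with the GC correction and the replicate block (23.8%). With the block alone it was 0 (35.1%), and at adjusted p under 0.01 it was 0 (23.7%). Leaving out 1 sample gave 0 to 2, beside 31.3% to 41.6% of all starts. The count of fragments, 119, was 163 after the GC correction (45.3% of all fragments) and 113 with the GC correction and the replicate block (29.9%). It was 28 with the replicate block alone (9.16%) and 25 at adjusted p under 0.01 (7.49%). With 1 sample left out it was 39 to 92, beside 13.6% to 21.4% of all fragments. The count of 6 peaks was 3 for peaks common to both diets (chosen after seeing the data), beside 40.6% of all such peaks. Under the other alternatives run it was between 4 and 9, though with other directions, beside 21% to 60.8% of all peaks. The 4 genes called over coding bases became 2 under scaling by the median absolute deviation, beside 56.4% of all genes. They were 4 to 5 with 1 sample left out, beside 42.4% to 52.5%.

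The difference between diets in *nub* and *pdm2* minus the other POU genes, 0.0076 on the log2 scale, was -0.0574 after quantile normalization, -0.681 under scaling by the median absolute deviation, 0.271 after the GC correction, -0.0609 without flanks, -0.0717 with 5 kb flanks and -0.664 at transcript starts. It was between -0.0124 and 0.0200 with 1 sample left out.

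The sign turned for the *pdm2* span after quantile normalization (-0.141). It also turned for *acj6* peak 1 (0.0577) and *acj6* peak 5 (0.842) after the GC correction, with the replicate block or without it. Among differences called neither way, the sign turned after the GC correction for the *nub* and *vvl* spans (-0.0729 in *vvl*) and the internal start of *pdm2* (0.0225). Among peaks the sign turned for *nub* peak 4, *pdm2* peak 4 (0.100), *pdm2* peak 5 and *acj6* peak 3. After quantile normalization it turned for the *vvl* span, the 3 starts at the 5′ end of *pdm2*, *nub* peaks 2, 3, 5 and 6, *pdm2* peaks 1 and 3 and *acj6* peak 4. Scaling by the median absolute deviation turned the same ones, the *pdm2* span and the first start of *nub*. The cause was not tested.

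Replicate numbers did not pair the samples: deviations of same-numbered samples correlated at r between -0.30 and 0.21 over 18119 genes. The highest r across the diets was 0.46, between control diet replicate 3 and sugar diet replicate 1, and a pairing under other numbers was not tested. With the replicate block the *pdm3* span (adjusted p = 0.0920 from limma), its first start (0.0822), its peak 2 (0.0888) and *acj6* peak 2 (0.0518) were not called. The coding bases of the same 4 genes were called with the block, beside 48.4% of all genes.

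Over all peaks, 37.2% were higher and 13.6% lower, against 28.4% and 29.1% after quantile normalization, 8.48% and 21.3% under scaling by the median absolute deviation, and 28.3% and 4.97% after the GC correction. No read counts are given, so what depth limits cannot be stated.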
